A study of Mus musculus with 12 samples.

Results

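The effect of copper with its ionophore elesclomol (Cu/ES) was measured here in cells that also received taurocholic acid (TCA), by comparing group C (Cu/ES + TCA) with group D (TCA alone). Members were all genes whose FPKM averaged 1 or more over the 6 libraries of these groups, which kept 10577 of the 24824 genes listed. FPKM is the number of reads of a gene scaled to the length of the gene and to the total of the library. The cells were AML12, a line of immortalized mouse hepatocytes labelled wild type. Group C was treated with 300 μM CuCl2, 40 nM elesclomol and 1000 μM TCA, group D with 1000 μM TCA, group B with 300 μM CuCl2 and 40 nM elesclomol, and group A was left untreated, with 24 h of treatment and 3 libraries of polyadenylated RNA per group. The sources used here do not say whether the libraries of a group came from separate cultures, so the p-values measure only the spread between these libraries, which may be technical.

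Elesclomol carries copper across membranes and releases it inside the cell, mainly in mitochondria. Copper in excess binds lipoylated enzymes of the citric acid cycle, destabilizes iron-sulfur proteins and unfolds proteins, and the death that follows is called cuproptosis. Cells answer unfolded cytosolic proteins through the transcription factor HSF1, which drives chaperone genes, oxidants and electrophiles through NRF2, and free metal through MTF1, which drives metallothioneins. TCA is a conjugated bile acid that accumulates in the liver in cholestasis. The comparison of groups C and D asks what Cu/ES does to the transcriptome when the bile acid is already present.

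The 3 libraries of group C held 29115011, 34912748 and 32298068 reads and those of group D held 39782142, 39444420 and 39539595, read back from the step size of the values. Between 8490 and 8711 genes reached 1 FPKM in group C and between 10570 and 10664 in group D. The first principal component of the 6 libraries separated the groups and held 98.0% of the variance, and a library of group C lay 184.9 from one of group D on the log2 scale, against 25.6 within group C and 18.4 within group D. The hepatocyte label was only partly borne out by its markers: *Alb* and *Fgb* were at 0 in all 6 libraries and *Hnf4a* did not exceed 0.0304 FPKM, while the keratin genes *Krt8* and *Krt18* and the mesenchymal gene *Vim* were abundant in group D (401, 399 and 400, 316, 299 and 317 and 1700, 1753 and 1688 FPKM). Of the 4 hepatocyte markers tested, 2 were higher in group C, *Apoe* and *Asgr1*, and 2 were lower. *Asgr1* (means of 12.6 against 0.106 FPKM) passed the minimum of 1 FPKM only through group C, so it could only be called higher. The lower ones were *Krt8* and *Krt18* (113, 132 and 122 and 57.8, 74.9 and 54.6 FPKM in group C). Summed markers of endothelial cells ran from 16.8 to 19.8 FPKM in group C and from 0.865 to 1.25 in group D, mostly through *Pecam1* (14, 18.2 and 16 FPKM in group C against 0.098, 0.114 and 0.19 FPKM in group D), with *Lyve1* and *Stab2* at or near 0. Macrophage markers summed to 25.2 to 37.9 FPKM and 32.2 to 45.2 FPKM, and cholangiocyte markers to 739 to 953 FPKM and 743 to 790 FPKM. These sums hide moves of single members. Of 4 cholangiocyte markers tested, 2 were higher and 1 lower in group C, with means of 52.4 against 8.5 FPKM for *Sox9* and 80.8 against 203 FPKM for *Krt19*. The other rise, *Cftr* (means of 3.87 against 0.0681 FPKM), passed the minimum only through group C, as did *Pecam1*. Of 2 macrophage markers tested, 0 were higher and 1, *Cd14*, was lower (means of 1.23 against 7.36 FPKM). The stellate cell or fibroblast list summed to 154 to 196 FPKM in group C against 1814 to 1936 FPKM in group D, nearly all of it *Vim* and *Col3a1*. The part of other cells in the results was not tested.

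Cu/ES with TCA moved most of the transcriptome. Differences are given as the mean of log2(FPKM + 1) in group C minus that in group D, from limma with Benjamini-Hochberg adjustment in 1 fit of all 12 libraries, with a standard error (SE), and a gene is called higher or lower where the adjusted p is under 0.05 and the difference exceeds 1 in size. By these thresholds 1238 genes (11.7% of those tested) were higher and 5607 (53.0%) were lower in group C, and 9776 (92.4%) had an adjusted p under 0.05. A gene that passed the minimum of 1 FPKM only through 1 group could be called higher only in that group. The median difference over all genes tested was -1.12, and 7940 of them lay below 0. FPKM divides each gene by the total of its library, so this shift is relative, and the size of the RNA pool was not measured. Less RNA per cell and fewer cells cannot be told apart in bulk samples. Median-ratio scaling, which sets the typical gene level between libraries, gave a median of -0.09, with 2804 genes higher (26.5%) and 2884 genes lower (27.3%), so that 18.1% of calls were rises as deposited and 49.3% after it. Quantile normalization gave 2230 higher and 2950 lower. All 1238 genes higher as deposited were also higher after median-ratio scaling, and all 2884 lower after it were also lower as deposited. That scaling divided the libraries of group C by 0.6073 to 0.6614 and those of group D by 1.515 to 1.555. It thus raised group C against group D in every gene, and the nesting of the calls is no independent check. Below, the median-ratio counts stand in brackets beside each list, and the background for them is the pair of percentages given here.

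**Figure D1:**
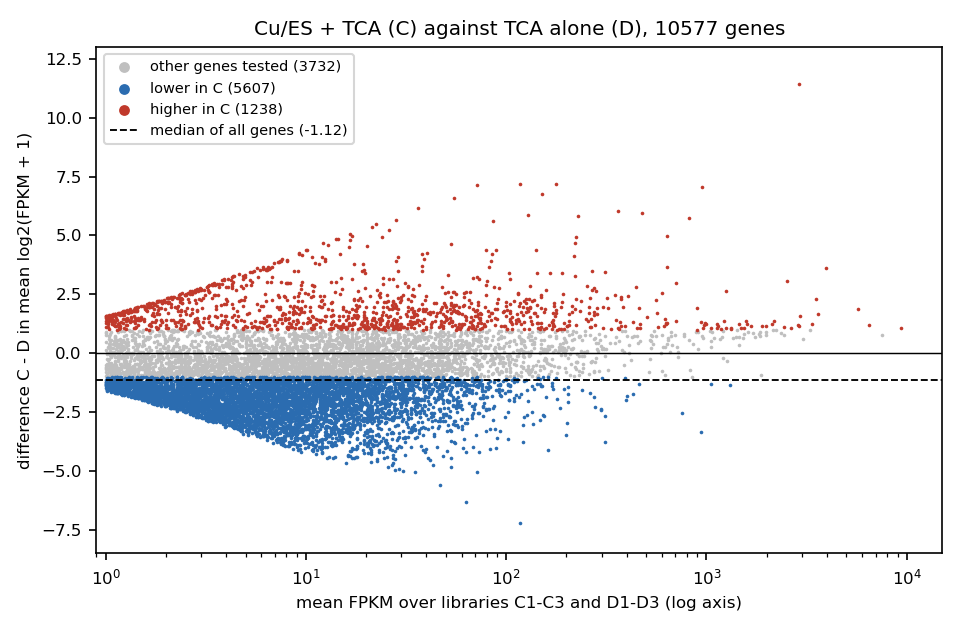
Each point is 1 of the 10577 genes, with its mean FPKM over the 6 libraries on a log axis and the difference between groups C and D on the log2(FPKM + 1) scale. Red marks the 1238 genes called higher and blue the 5607 called lower, and the dashed line at -1.12 is the median of all genes, below which most blue points lie.

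Some sets of abundant genes held larger shares of the reads in group C, and their part in the shift of the median was not tested. The 13 proteins encoded by the mitochondrial genome took 5%, 4.9% and 4.88% of the reads in group C and 1.93%, 2.04% and 2.13% in group D. Cytosolic ribosomal protein genes took 9.51%, 11.5% and 9.75% of the reads in group C and 5.98%, 5.31% and 5.42% in group D. The 78 cytosolic chaperone genes listed took 5.64%, 6.59% and 5.67% of the reads in group C and 1.27%, 1.28% and 1.26% in group D. In each of these sets the lowest library of group C lay above the highest of group D. *Hspa1b* alone held 1.63% ± 0.18 of all reads in group C (SD, n = 3) and 0.000318% in group D.

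**Figure D2:**
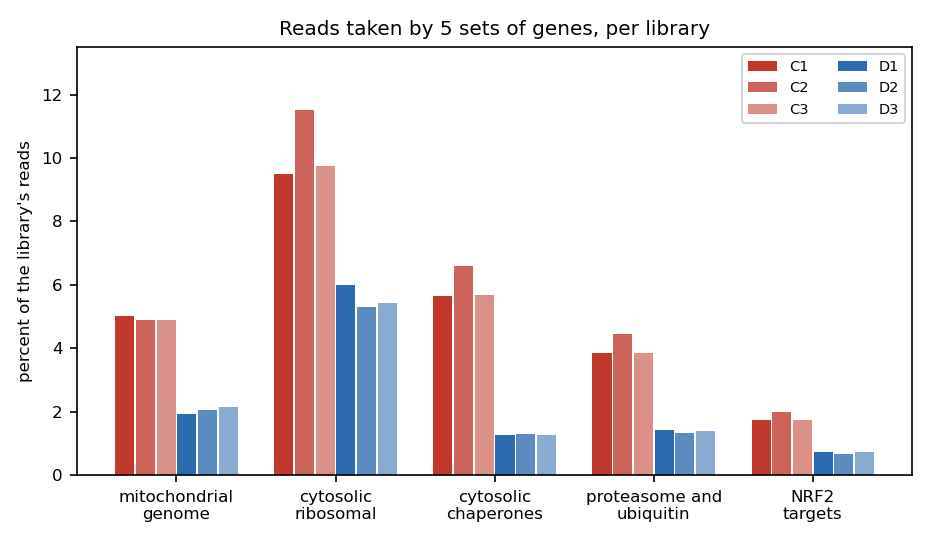
Bars give the percent of the recovered reads of each of the 6 libraries that fell on 5 sets of genes, in red for the libraries of group C and in blue for those of group D. Every red bar stands above every blue bar of its set, with 11.5% as the highest share (cytosolic ribosomal proteins in C2).

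Several chaperone genes were among the largest rises. HSP70 proteins hold unfolded chains with the help of DNAJ partners, HSP110 exchanges their nucleotide, and small heat shock proteins such as αB-crystallin (*Cryab*) keep aggregates soluble. *Hspa1b* measured 5443, 6556 and 5453 FPKM in group C and 0.993, 1.34 and 1.05 FPKM in group D, a difference of 11.41 (SE 0.13, adjusted p = 3.16e-16). *Hspa1a* measured 108, 185 and 138 FPKM in group C and 0.00898, 0 and 0 FPKM in group D, where a single read was counted, which gives a ratio of 48515 in reads with a 95% exact interval of 8707 to 1916274 for counting error only. Both genes went from near silence to high levels, and since their sequences are nearly identical the split of reads between them is uncertain. *Dnajb1* measured 877, 1072 and 878 FPKM in group C and 14.1, 13.1 and 15.3 FPKM in group D, a difference of 5.95 (SE 0.09, adjusted p = 4.80e-15). *Cryab* measured 260, 375 and 266 FPKM in group C and 1.02, 1.77 and 2.78 FPKM in group D, a difference of 6.75 (SE 0.21, adjusted p = 5.11e-13). The HSP110 gene *Hsph1* measured 419, 436 and 419 FPKM in group C against 16.2, 15.6 and 15.3 FPKM in group D, and the constitutive HSP70 *Hspa8*, already abundant, measured 6909, 8080 and 6871 FPKM in group C against 539, 698 and 544 FPKM in group D. *Hspb1*, the small chaperone HSP27, measured 402, 887 and 426 FPKM in group C against 46.3, 48 and 48.5 FPKM in group D, with library C2 far above C1 and C3. Library B2 likewise stood above B1 and B3 in *Hspb1* (1730, 2954 and 1831 FPKM in group B). Groups C and D did not overlap in any of these 7 genes, as they did not in 20.9% of all genes with group C higher and 71.1% with group C lower. The rule that named *Dnajb1* and *Cryab* required no overlap, and *Hsph1*, *Hspa8* and *Hspb1* were named after their values were seen. For these genes the lack of overlap was set by the choice and is no test. An exact permutation test of 3 libraries against 3 cannot go below 0.1, and each gene without overlap reaches that value.

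The bases just upstream of 3 of these genes are shown because paired heat shock units, the inverted repeats that HSF1 contacts, can be seen in them. They were picked for these units, and the other genes of the paragraph above are not shown. Each run holds 150 bases before the annotated start, from RefSeq (GRCm38.p6), 5′ to 3′ on the strand of the gene, with the paired units in capitals.
Hspa1b, chr17:34959239-34959388, minus strand: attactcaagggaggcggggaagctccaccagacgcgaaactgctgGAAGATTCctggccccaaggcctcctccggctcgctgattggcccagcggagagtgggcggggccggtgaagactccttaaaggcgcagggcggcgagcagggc
Hspa1a, chr17:34972157-34972306, minus strand: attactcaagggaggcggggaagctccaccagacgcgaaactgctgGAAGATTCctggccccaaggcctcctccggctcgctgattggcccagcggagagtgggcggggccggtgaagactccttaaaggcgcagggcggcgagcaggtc
Hspb1, chr5:135887769-135887918, plus strand: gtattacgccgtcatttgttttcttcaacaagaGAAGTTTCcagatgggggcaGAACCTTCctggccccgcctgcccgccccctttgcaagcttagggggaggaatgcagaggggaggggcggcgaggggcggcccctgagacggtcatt
The *Hspa1a* and *Hspa1b* runs differ at 1 of 150 bases. In the 250 bases before the start, searched on both strands, a pair of units (GAANNTTC or TTCNNGAA) occurred in 11.9% of 1188 promoters of genes higher in group C, in 9.22% of 5780 of genes lower, in 9.84% of all tested, and in 12.8% of the 32851 promoters of the table. Among the promoters of the 100 largest rises it was 19.5% and among those of the 100 largest falls 11.8%. A run of 3 alternating units, which contains the pair, occurred in 0.421% of promoters of genes higher and 0.398% of those lower, and in 0 of 87 promoters of the 100 largest rises and 0 of 93 of the 100 largest falls. It was found 0 times in the 250 bases before the start of each of the 3 genes shown. The core of the antioxidant response element, TGACNNNGC, occurred in 15.5% and 10.7%, the ATF4 element TGATGCAA in 0.673% and 0.554%, and the metal response core (TGCGCNC or TGCACNC) in 27.2% and 30.8%. The TATA box TATAAA occurred in 10.9% of promoters of genes higher and 5.85% of those lower, against 6.31% of all tested. Over all tested promoters the 3-unit run was found in 0.399%, the antioxidant core in 11.9%, the ATF4 element in 0.547% and the metal core in 29.9%. Promoters were matched for 8480 of the genes tested, some with several starts, and a match describes letters only.

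As whole lists the chaperones were mixed, with rises in some members and falls in others. Of the HSP70 and HSP110 list, 4 of 10 members tested were higher and 4 lower in group C (5 and 1 after median-ratio scaling). The median difference of its members was -0.43, turning to 0.77 after median-ratio scaling and 0.19 after quantile normalization. The largest fall was in *Hspa14*, a ribosome-bound member (6.04, 5.53 and 6.1 FPKM in group C against 27.6, 24.7 and 25.8 FPKM in group D). Of the small heat shock and BAG list, 4 of 10 members tested were higher and 4 lower in group C (5 and 3 after median-ratio scaling), with a median difference of -0.21, turning to 1.03 after median-ratio scaling. The co-chaperone *Bag3*, which directs clients to autophagy, measured 182, 188 and 187 FPKM in group C against 44.8, 48.8 and 44.7 FPKM in group D, while *Bag5* went the other way (0.259, 0.119 and 0.14 FPKM in group C against 10.1, 10.3 and 9.65 FPKM in group D). Of the HSP90 list, 8 of 19 members tested were higher and 2 lower in group C (10 and 1 after median-ratio scaling). Its median difference was 0.17, turning to -0.11 in TPM. *Hsp90aa1*, the inducible HSP90, measured 1175, 1396 and 1205 FPKM in group C against 152, 160 and 158 FPKM in group D (a difference of 3.00 (SE 0.07, adjusted p = 7.63e-14)), and *Fkbp5*, a co-chaperone of steroid receptors, fell from 36.7, 39.4 and 35.3 to 0.592, 1.56 and 1.65 FPKM. Of the DNAJ list, 5 of 32 members tested were higher and 17 lower in group C (9 and 10 after median-ratio scaling). At the median, members differed by -1.37, with *Dnaja3*, the mitochondrial member, showing the largest fall (-2.94). Of the CCT chaperonin and prefoldin list, 2 of 14 members tested were higher and 2 lower in group C (8 and 0 after median-ratio scaling), the median difference being -0.12, turning to 1.13 after median-ratio scaling. *Cct3*, a chaperonin subunit, was higher (1.55) and *Pfdn5*, a prefoldin subunit, was lower (-1.64). Each of these lists except DNAJ had a median above that of all genes, by 0.69 (HSP70 and HSP110), 0.90 (small heat shock and BAG), 1.28 (HSP90) and 1.0 (CCT and prefoldin). The DNAJ median lay -0.26 from it.

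**Figure D3:**
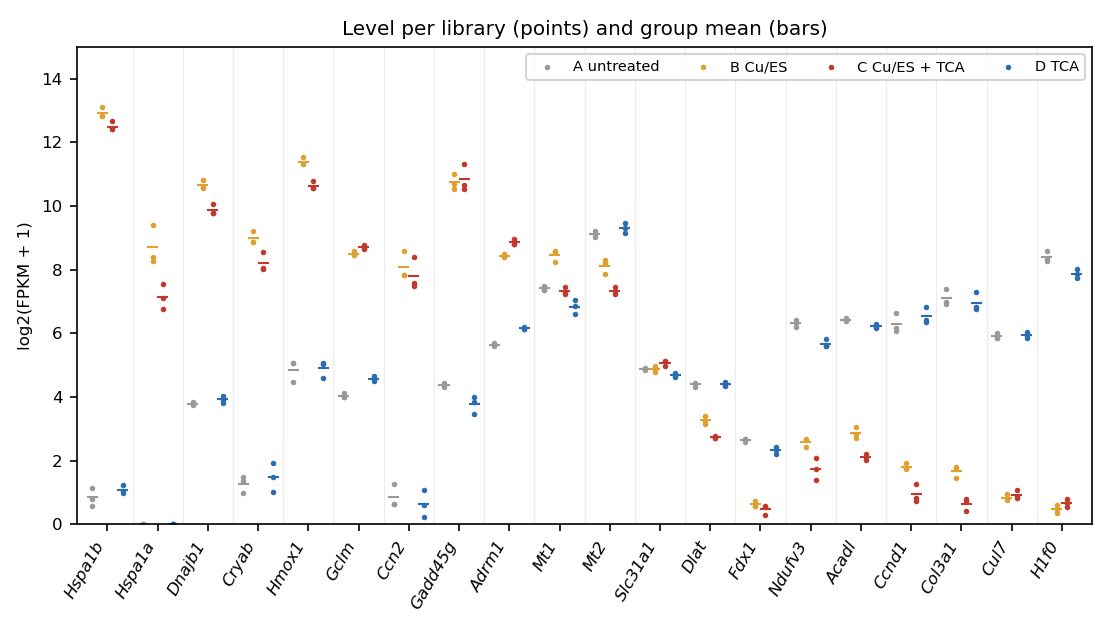
Points give log2(FPKM + 1) of 20 genes in each of the 12 libraries and short bars the mean of each group of 3. The chaperones and *Gadd45g* sit near the floor or low in groups A and D and high in B and C, while the 8 genes from *Dlat* to *H1f0* run the other way.

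Many genes of protein degradation rose. The proteasome cuts proteins tagged with ubiquitin, and p97 (*Vcp*) pulls them out of complexes and membranes. Of the proteasome list, 22 of 41 members tested were higher and 6 lower in group C (33 and 2 after median-ratio scaling). The list had a median difference of 1.05, which is 2.16 above the median of all genes. *Adrm1* measured 445, 499 and 450 FPKM in group C and 69, 69 and 73.2 FPKM in group D, a difference of 2.70 (SE 0.06, adjusted p = 7.03e-14), where *Adrm1* encodes the ubiquitin receptor Rpn13. The exceptions included *Psmg2*, a chaperone of proteasome assembly (0.541, 0.494 and 1.05 FPKM in group C against 24.2, 20 and 22.5 FPKM in group D). Of the list of ubiquitin supply and p97, 10 of 20 members tested were higher and 3 lower in group C (14 and 1 after median-ratio scaling). The differences of its members had a median of 0.97. *Zfand2a* measured 278, 264 and 270 FPKM in group C and 12.1, 11 and 12.5 FPKM in group D, a difference of 4.40 (SE 0.07, adjusted p = 4.80e-15), where *Zfand2a* (AIRAP) is a proteasome-binding protein induced by arsenite. *Sqstm1*, the autophagy receptor p62, measured 1342, 1581 and 1325 FPKM in group C against 394, 324 and 402 FPKM in group D. *Nsfl1c*, the p97 cofactor p47, was lower (-2.42). Of the autophagy and lysosome list, 17 of 54 members tested were higher and 12 lower in group C (31 and 6 after median-ratio scaling), at a median difference of 0.22, turning to -0.06 in TPM. *Atg13*, of the kinase complex that starts autophagy, fell from 28.3, 26.4 and 30.5 to 1.4, 1.41 and 1.16 FPKM.

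Metallothioneins, the small cysteine-rich proteins that bind copper and zinc, did not pass both thresholds for a rise as deposited, although *Mt1* was higher after median-ratio scaling. *Mt1* measured 149, 175 and 157 FPKM in group C and 131, 97.2 and 115 FPKM in group D, a difference of 0.49 (SE 0.11, adjusted p = 0.000754), which is under the fold threshold. *Mt2* measured 159, 175 and 150 FPKM in group C and 703, 634 and 563 FPKM in group D, a difference of -1.97 (SE 0.11, adjusted p = 2.50e-10). All libraries of group C lay below all of group D for *Mt2* and above them for *Mt1*, and *Mt2* was also lower after median-ratio scaling (-0.71), where *Mt1* gave 1.74. Of the metallothionein and zinc transport list, 3 of 22 members tested were higher and 10 lower in group C (6 and 5 after median-ratio scaling). The median difference of its members was -0.78, turning to 0.41 after median-ratio scaling. Among zinc transporters, *Slc39a9* was higher (1.16) and *Slc39a1* was lower (-3.04).

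Copper transport genes were called lower about as often as genes in general. *Slc31a1*, the copper importer CTR1, measured 34.1, 30.3 and 33.8 FPKM in group C against 25.9, 23.5 and 24.5 FPKM in group D (a difference of 0.39 (SE 0.07, adjusted p = 9.54e-05)). That difference was under the fold threshold as deposited, reached 1.61 after median-ratio scaling and 1.03 after quantile normalization, and was 0.12 (adjusted p = 0.203) in TPM. *Atp7a*, a copper exporter, measured 6.66, 3.04 and 6.68 FPKM in group C against 3.1, 3.98 and 3.16 FPKM in group D, so that the groups overlapped, and its difference of 0.50 (adjusted p = 0.0257) lost the adjusted p without either C1 or C3, without either D1 or D3, and in a fit of groups C and D alone. *Atp7b*, the hepatocyte exporter mutated in Wilson disease, was under 0.1 FPKM in every library of both groups and was not tested. Of the copper list, 1 of 19 members tested were higher and 11 lower in group C (5 and 8 after median-ratio scaling), with a median difference of -1.45. The mitochondrial phosphate and copper carrier *Slc25a3* was the only member higher as deposited (1.07), and *Loxl2*, a secreted copper enzyme, showed the largest fall (0.926, 1.57 and 0.999 FPKM in group C against 55, 54.7 and 50.2 FPKM in group D).

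Genes of protein lipoylation and of the lipoylated enzymes, which copper binds in cuproptosis, were mostly lower, as were 53.0% of all genes tested. *Fdx1* encodes the ferredoxin that reduces copper from elesclomol, and measured 0.22, 0.474 and 0.468 FPKM in group C against 4.35, 3.61 and 4 FPKM in group D (a difference of -1.85 (SE 0.10, adjusted p = 1.33e-10)). *Lias*, lipoic acid synthetase, measured 1.1, 1.5 and 1.44 FPKM in group C against 10.4, 9.5 and 10.7 FPKM in group D (a difference of -2.26 (SE 0.09, adjusted p = 1.06e-11)). *Dlat*, the lipoylated E2 of pyruvate dehydrogenase, measured 5.58, 5.49 and 5.82 FPKM in group C against 19.9, 19.4 and 21.3 FPKM in group D (a difference of -1.67 (SE 0.08, adjusted p = 3.58e-11)). *Dlst*, the E2 of 2-oxoglutarate dehydrogenase, measured 30.7, 33.6 and 30.8 FPKM in group C against 63.8, 61.3 and 66.7 FPKM in group D, a difference of -0.99 that stayed under the fold threshold and turned to 0.24 after median-ratio scaling. In all 4 genes every library of group C lay below every library of group D. Of the whole list, 2 of 22 members tested were higher and 15 lower in group C (3 and 8 after median-ratio scaling). Its median difference was -1.57, which is -0.45 from the median of all genes, and the 8 lower after scaling stand against 27.3% of all genes. The subunits of pyruvate dehydrogenase did not move together, with *Pdhb* at 211, 217 and 211 FPKM in group C against 73.1, 66.1 and 73 FPKM in group D and *Pdha1* at 20.4, 17.3 and 19.4 FPKM in group C against 53.5, 54.2 and 55.1 FPKM in group D. *Pdk1*, the kinase that inhibits that enzyme, fell from 35.8, 28.1 and 35.7 to 0.631, 0.512 and 0.524 FPKM. Of the iron-sulfur assembly list, 0 of 23 members tested were higher and 15 lower in group C (4 and 6 after median-ratio scaling). At the median, members differed by -1.40, which is -0.29 from the median of all genes, and the 6 lower after scaling stand against the same 27.3%. The largest fall was in *Ciao2a* (-3.03), a factor of cytosolic cluster delivery.

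Nuclear genes of complex I and the genes of the mitochondrial genome moved apart, while nuclear genes of complexes II to V were mixed. Of the 13 proteins encoded by mitochondrial DNA, 11 of 13 members tested were higher and 0 lower in group C (13 and 0 after median-ratio scaling), the median difference being 1.42. *ND2* measured 5262, 6237 and 6055 FPKM in group C and 924, 1360 and 1265 FPKM in group D, a difference of 2.32 (SE 0.18, adjusted p = 9.40e-09). Of the nuclear complex I list, 0 of 36 members tested were higher and 28 lower in group C (1 and 12 after median-ratio scaling). The list had a median difference of -1.66. *Ndufv3*, a subunit of its NADH-binding arm, measured 1.61, 3.23 and 2.35 FPKM in group C against 55.3, 48 and 47.5 FPKM in group D. Of the list of nuclear subunits of complexes II to V, 1 of 38 members tested were higher and 16 lower in group C (11 and 5 after median-ratio scaling). The differences of its members had a median of -0.85, turning to 0.40 after median-ratio scaling, and -0.98 after quantile normalization. As deposited this median lay 0.27 above that of all genes, and the 16 lower stand against 53.0% of all genes. *Uqcrc2*, a core subunit of complex III, fell from 80.1, 74.9 and 75.6 to 8.4, 7.47 and 8.06 FPKM, while *Atp5l*, subunit g of ATP synthase, was higher (1.15). Of the mitochondrial ribosomal protein list, 1 of 77 members tested were higher and 54 lower in group C (8 and 27 after median-ratio scaling), at a median difference of -1.68, with *Mrps34* at -3.92 and *Mrps6* at 1.79. Of mitochondrial chaperones and proteases, 2 of 16 members tested were higher and 7 lower in group C (3 and 2 after median-ratio scaling). The median difference of its members was -0.90, turning to 0.34 after median-ratio scaling. The chaperonin partner *Hspe1* (HSP10) was higher (555, 750 and 562 FPKM in group C against 142, 117 and 117 FPKM in group D).

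Genes of fatty acid oxidation were lower almost throughout. Of the fatty acid oxidation list, 1 of 23 members tested were higher and 22 lower in group C (1 and 16 after median-ratio scaling), with a median difference of -2.30, which is -1.18 from the median of all genes. *Acadl*, long-chain acyl-CoA dehydrogenase, measured 3.09, 3.59 and 3.29 FPKM in group C against 77.1, 70.2 and 72.8 FPKM in group D (a difference of -4.11 (SE 0.09, adjusted p = 3.96e-14)). Of the citric acid cycle list, 0 of 19 members tested were higher and 12 lower in group C (3 and 6 after median-ratio scaling). Its median difference was -1.62, and *Fh1*, fumarase, fell from 48.3, 44.5 and 42.6 to 2.21, 2.98 and 2.31 FPKM. Of the glycolysis list, 0 of 19 members tested were higher and 7 lower in group C (7 and 3 after median-ratio scaling). At the median, members differed by -0.38, turning to 0.87 after median-ratio scaling, with *Aldoc*, aldolase C, showing the largest fall (-4.42). Of the list of hypoxia sensors and HIF targets, 1 of 19 members tested were higher and 12 lower in group C (3 and 7 after median-ratio scaling), the median difference being -1.41. *Kdm3a*, a histone demethylase and HIF target, was the only member higher as deposited (95.1, 70.3 and 92.4 FPKM in group C against 20.6, 19.3 and 20.1 FPKM in group D). Of the cholesterol and fatty acid synthesis list, 2 of 28 members tested were higher and 16 lower in group C (8 and 4 after median-ratio scaling). The list had a median difference of -1.04, turning to 0.07 after median-ratio scaling. Its regulators went opposite ways, *Insig1*, which retains SREBP in the endoplasmic reticulum, at 1.33 and *Srebf1*, which encodes SREBP-1, at -3.56.

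**Figure D4:**
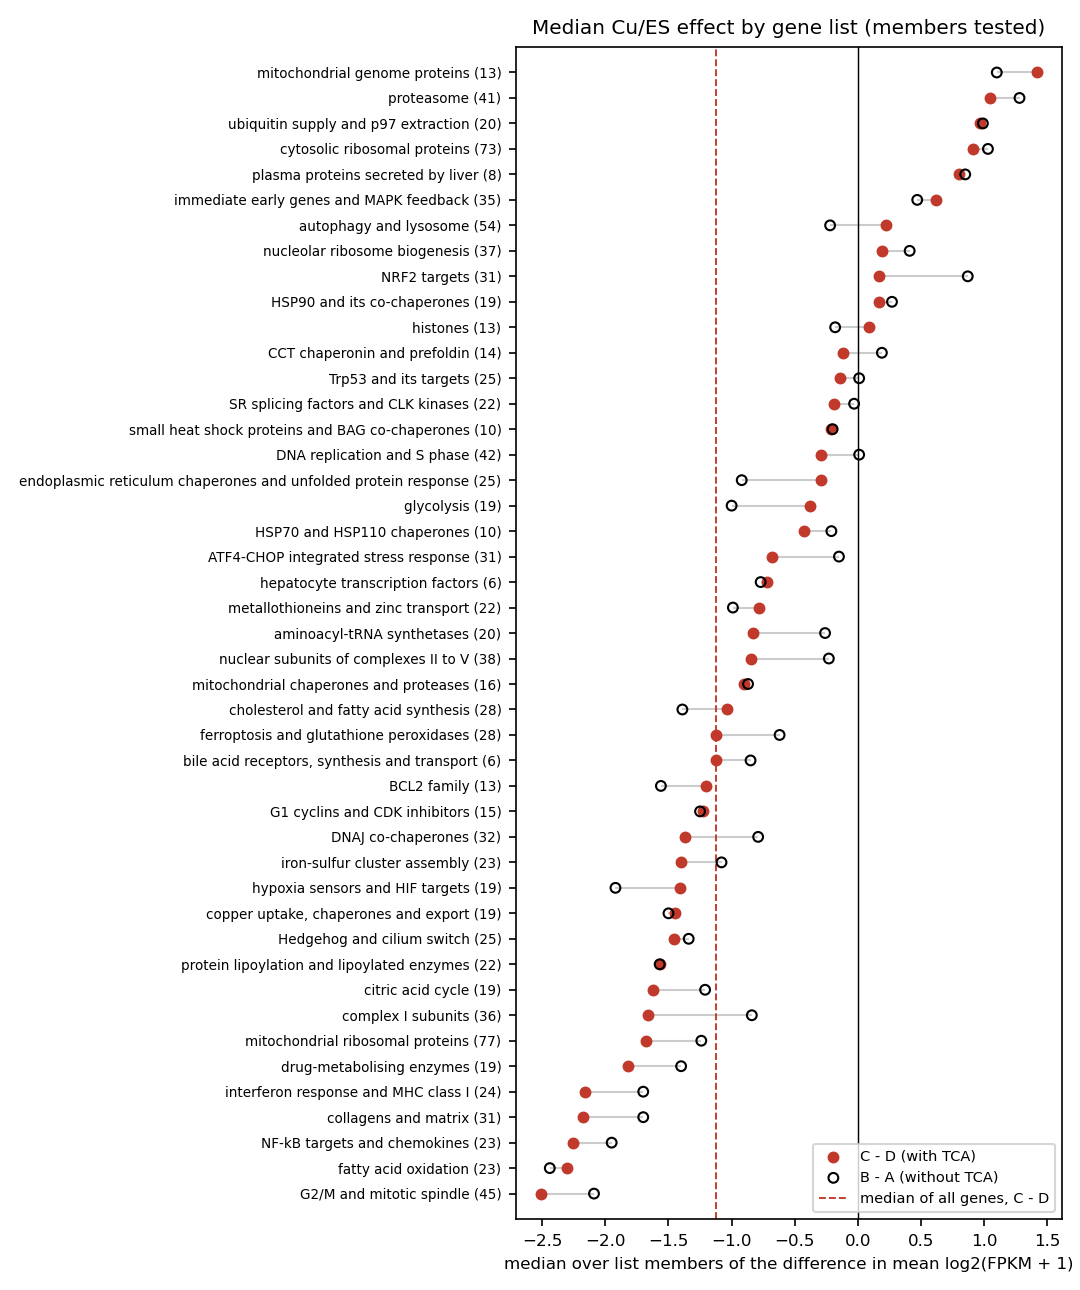
For each of the 45 gene lists, ordered by the median of its tested members (number in brackets), the filled red point gives the median difference between groups C and D and the open circle that between B and A. The dashed line is the median of all genes for C and D (-1.12), with the G2/M list lowest at -2.51 and the mitochondrial genome highest at 1.42.

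Oxidant defence genes divided. NRF2, released from KEAP1 by electrophiles, drives enzymes of glutathione, thioredoxin and heme turnover. *Hmox1* measured 1528, 1767 and 1515 FPKM in group C and 32.6, 23.1 and 31.7 FPKM in group D, a difference of 5.75 (SE 0.15, adjusted p = 1.77e-13), where *Hmox1* encodes heme oxygenase 1. *Gclm*, which limits glutathione synthesis, measured 398, 440 and 409 FPKM in group C against 23, 21.4 and 24 FPKM in group D, and *Txnrd1*, thioredoxin reductase, measured 605, 580 and 600 FPKM in group C against 107, 99.7 and 107 FPKM in group D. Those 3 genes passed both thresholds, while *Srxn1* and *Slc7a11* did not. All of these genes except *Hmox1* were chosen after their values were seen. *Srxn1*, sulfiredoxin, measured 34.6, 34.2 and 35.3 FPKM in group C against 58.9, 50.6 and 61.1 FPKM in group D, a difference of -0.69 that turned to 0.54 after median-ratio scaling. *Slc7a11*, the cystine importer, measured 50.2, 32.2 and 51.5 FPKM in group C against 36.2, 37.3 and 37.7 FPKM in group D, a difference of 0.23 (adjusted p = 0.129) that was -0.05 in TPM. Of the NRF2 list, 12 of 31 members tested were higher and 12 lower in group C (16 and 2 after median-ratio scaling). The differences of its members had a median of 0.17, turning to -0.07 after quantile normalization and -0.11 in TPM, and its largest fall was in *Trib3* (-3.31), which is also an ATF4 target. Of the list of ferroptosis genes and peroxidases, 3 of 28 members tested were higher and 15 lower in group C (9 and 6 after median-ratio scaling), at a median difference of -1.12, turning to 0.11 after median-ratio scaling. *Prdx1*, peroxiredoxin 1, was its largest rise (2095, 2290 and 2067 FPKM in group C against 353, 339 and 353 FPKM in group D), and *Lpcat3*, which puts polyunsaturated chains into phospholipids, its largest fall (-2.80).

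The integrated stress response, in which phosphorylation of eIF2α favours translation of ATF4, was not raised as a whole. Of its list, 5 of 31 members tested were higher and 10 lower in group C (13 and 7 after median-ratio scaling). The median difference of its members was -0.68, turning to 0.57 after median-ratio scaling. *Atf3*, a stress factor shared with the immediate early genes, was the largest rise (418, 469 and 407 FPKM in group C against 14.5, 12.5 and 12.9 FPKM in group D), and *Atf5*, an ATF4 target of mitochondrial stress, the largest fall (7.54, 7.54 and 6.87 FPKM in group C against 129, 140 and 120 FPKM in group D). *Ddit3*, which encodes CHOP, measured 44.4, 61.4 and 50.5 FPKM in group C against 48, 37.9 and 42.9 FPKM in group D, with overlap and a difference of 0.27 that was -0.02 in TPM. *Asns*, asparagine synthetase, gave -0.99 as deposited and 0.26 after median-ratio scaling. Of the endoplasmic reticulum list, 3 of 25 members tested were higher and 9 lower in group C (12 and 3 after median-ratio scaling), with a median difference of -0.29, turning to 0.96 after median-ratio scaling. *Dnajb9*, a target of XBP1, measured 223, 319 and 243 FPKM in group C against 23.4, 22.3 and 25.4 FPKM in group D, *Hspa5* (BiP), the main chaperone there, measured 1965, 2178 and 1906 FPKM in group C against 1063, 866 and 996 FPKM in group D, and *Derl2*, of the retrotranslocation channel, was lower (-2.85).

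Ribosome genes stood high among all genes as deposited. Of the cytosolic ribosomal proteins, 28 of 73 members tested were higher and 0 lower in group C (72 and 0 after median-ratio scaling). Its median difference was 0.91, and all 73 lay above the median of all genes. *Rps12* gave the largest rise (837, 1024 and 863 FPKM in group C against 367, 313 and 308 FPKM in group D). After quantile normalization, however, 0 were called higher and 2 lower, with a median of 0.11. Of the nucleolar list, which makes ribosomes, 6 of 37 members tested were higher and 11 lower in group C (21 and 4 after median-ratio scaling). At the median, members differed by 0.19, turning to -0.09 in TPM. *Utp14a*, of pre-rRNA processing, was higher (2.40), and *Polr1b*, a subunit of RNA polymerase I, was lower (-3.00). Of the aminoacyl-tRNA synthetases, 1 of 20 members tested were higher and 10 lower in group C (7 and 2 after median-ratio scaling), the median difference being -0.83, turning to 0.38 after median-ratio scaling, with *Rars* at 1.29 and *Dars* at -3.34. Of the SR splicing factors and CLK kinases, 4 of 22 members tested were higher and 1 lower in group C (12 and 0 after median-ratio scaling). The list had a median difference of -0.19, turning to 1.04 after median-ratio scaling and 0.37 after quantile normalization. *Srsf2* measured 410, 594 and 459 FPKM in group C against 70.2, 82.6 and 73.4 FPKM in group D, and *Srsf9* was lower (-1.98).

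Genes of mitosis were lowered more than most, which did not extend to those of DNA replication and G1. Of the G2/M list, 0 of 45 members tested were higher and 40 lower in group C (1 and 28 after median-ratio scaling). The differences of its members had a median of -2.51, the lowest median of all 45 lists and -1.39 from that of all genes. *Ccnb1*, mitotic cyclin B1, fell from 46.7, 48.4 and 49.5 to 2.52, 1.99 and 2.66 FPKM, and *Cdc25b*, the phosphatase that activates CDK1, from 49.5, 46.8 and 51.4 to 1.48, 0.982 and 1.67. Of the DNA replication list, 11 of 42 members tested were higher and 15 lower in group C (20 and 4 after median-ratio scaling), at a median difference of -0.29, turning to 0.80 after median-ratio scaling and 0.69 after quantile normalization, with *Rpa2*, a single-strand binding protein, at 1.99 and *Tk1*, thymidine kinase, at -4.14. Of the G1 cyclins and CDK inhibitors, 2 of 15 members tested were higher and 8 lower in group C (3 and 6 after median-ratio scaling). The median difference of its members was -1.23. *Ccnd1*, cyclin D1, fell from 85.2, 112 and 80.6 to 0.775, 1.41 and 0.657 FPKM, *Cdkn1c*, the inhibitor p57, measured 85.2, 134 and 87.8 FPKM in group C against 3.18, 3.04 and 2.92 FPKM in group D, and *Cdkn1a*, the inhibitor p21, measured 227, 230 and 229 FPKM in group C against 265, 215 and 272 FPKM in group D, a difference of -0.12 (adjusted p = 0.26) that was 1.13 after median-ratio scaling. Of the histone list, 3 of 13 members tested were higher and 5 lower in group C (7 and 4 after median-ratio scaling), with a median difference of 0.09, turning to -0.19 in TPM. *H1f0*, the linker histone of resting cells, was the largest fall of any gene named (0.449, 0.712 and 0.581 FPKM in group C against 231, 257 and 211 FPKM in group D, a difference of -7.21 (SE 0.10, adjusted p = 3.20e-15)), while *H2bc4*, whose transcript can be polyadenylated, was higher (2.43).

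Many immediate early genes and some of growth arrest rose. Of the immediate early and MAPK feedback list, 17 of 35 members tested were higher and 5 lower in group C (21 and 2 after median-ratio scaling). Its median difference was 0.62. *Fos* measured 10.9, 13.7 and 9.26 FPKM in group C against 3.84, 3.07 and 3.45 FPKM in group D, *Jun* measured 62.4, 76.3 and 62.1 FPKM in group C against 19.7, 18 and 19.1 FPKM in group D, and *Spred1*, an inhibitor of the pathway, fell (-2.89). Of the p53 list, 7 of 25 members tested were higher and 9 lower in group C (12 and 6 after median-ratio scaling). At the median, members differed by -0.14, turning to 0.96 after median-ratio scaling and 0.87 after quantile normalization. *Gadd45g* measured 1491, 2543 and 1614 FPKM in group C and 15, 13.4 and 9.97 FPKM in group D, a difference of 7.07 (SE 0.18, adjusted p = 1.38e-13), where *Gadd45g* is a stress sensor of growth arrest. *Mdm2*, the p53 ligase and target, measured 52.7, 47.5 and 50.7 FPKM in group C against 20.1, 18.6 and 20.8 FPKM in group D, and *Phlda3*, another target, fell from 35.2, 34.1 and 33.4 to 1.24, 1.25 and 0.908 FPKM. Of the BCL2 family, 1 of 13 members tested were higher and 7 lower in group C (3 and 4 after median-ratio scaling), the median difference being -1.20, turning to 0.14 after quantile normalization, with the death effector *Bax* just past the fold threshold (1.01) and *Bad*, a sensitizer, lower (-3.16).

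Inflammatory genes were lower. Of the NF-kB targets and chemokines, 1 of 23 members tested were higher and 16 lower in group C (4 and 12 after median-ratio scaling). The list had a median difference of -2.26. *Cx3cl1*, fractalkine, fell from 37.7, 48.4 and 38.3 to 0.677, 0.738 and 0.689 FPKM, and *Nfkbib*, an inhibitor of NF-kB, was the only member higher as deposited (1.58). Of the interferon and MHC class I list, 0 of 24 members tested were higher and 18 lower in group C (6 and 14 after median-ratio scaling). The differences of its members had a median of -2.16. *Tap1*, the peptide transporter of antigen presentation, fell from 20.5, 26.1 and 20 to 0.21, 0.184 and 0.22 FPKM.

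Matrix genes fell strongly, with 1 large exception. Of the collagen and matrix list, 3 of 31 members tested were higher and 24 lower in group C (3 and 15 after median-ratio scaling), at a median difference of -2.18. *Col3a1*, the chain of type III collagen, fell from 108, 158 and 112 to 0.346, 0.726 and 0.64 FPKM (a difference of -6.32 (SE 0.16, adjusted p = 1.24e-13)), and *Col6a1* from 46.7, 75.1 and 51.1 to 1.05, 0.85 and 0.888 FPKM. *Ccn2*, connective tissue growth factor, a target of YAP and TGF-β, went the other way (178, 336 and 189 FPKM in group C against 0.513, 1.12 and 0.179 FPKM in group D, a difference of 7.18 (SE 0.28, adjusted p = 4.63e-12)). Of the Hedgehog and cilium list, 1 of 25 members tested were higher and 17 lower in group C (4 and 10 after median-ratio scaling). The median difference of its members was -1.46, and *Smo*, the signal transducer Smoothened, fell from 11.5, 14 and 13.3 to 0.436, 0.356 and 0.234 FPKM.

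Liver function genes could be followed only in part, since most were not expressed at 1 FPKM. Of 19 hepatocyte transcription factors listed, 6 were tested, and *Cebpb*, a factor of the acute phase and of stress, was the 1 called higher (354, 421 and 345 FPKM in group C against 80.2, 72 and 74 FPKM in group D). Of the plasma protein list, 4 of 8 members tested were higher and 2 lower in group C (5 and 2 after median-ratio scaling), with a median difference of 0.80. *Apoe*, the apolipoprotein, measured 19.2, 20.6 and 21.7 FPKM in group C against 3.63, 3.75 and 3.23 FPKM in group D, and complement *C3* measured 0.983, 1.17 and 1.11 FPKM in group C against 12, 29.1 and 12 FPKM in group D, with library D2 above the others. Library A2 likewise stood above A1 and A3 in the gene *C3* (12.9, 29.9 and 13.3 FPKM in group A). Of the bile acid list, 0 of 6 members tested were higher and 3 lower in group C (0 and 1 after median-ratio scaling). Its median difference was -1.12. *S1pr2*, a membrane receptor for conjugated bile acids, was lower (2.06, 1.93 and 2.63 FPKM in group C against 17, 18.5 and 17.2 FPKM in group D). Of the drug metabolism list, 1 of 19 members tested were higher and 14 lower in group C (3 and 6 after median-ratio scaling). At the median, members differed by -1.82, with *Mgst3*, a microsomal glutathione transferase, at -3.66 and *Cyp2u1*, a fatty acid hydroxylase, at 12.7, 9.61 and 11.9 FPKM in group C against 0.0108, 0 and 0.0325 FPKM in group D. *Cyp2u1*, the 1 member called higher, passed the minimum of 1 FPKM only through group C, and *Mgst3* only through group D.

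The 8 largest rises past both thresholds, among genes with a mean of at least 5 FPKM and no overlap, were *Hspa1b*, *Ccn2*, *Vgf*, *Hspa1a*, *Gadd45g*, *Cryab*, *Tex19.1* and *Gm41326*. *Vgf*, a growth factor-induced precursor of secreted peptides, measured 297, 455 and 310 FPKM in group C against 1.85, 0.902 and 1.59 FPKM in group D (a difference of 7.17 (SE 0.18, adjusted p = 1.19e-13)). *Tex19.1*, a gene of germ cells and placenta, measured 68.9, 184 and 76 FPKM in group C against 0.0144, 0.0583 and 0 FPKM in group D, with C2 far above C1 and C3. Library B2 likewise stood above B1 and B3 in *Tex19.1* (80.4, 190 and 84.3 FPKM in group B). *Gm41326*, a predicted gene, was at 0 in all libraries of group D and measured 56.8, 98.1 and 61.8 FPKM in group C, at least 2350-fold higher in reads against a floor of 3 reads over group D. The 8 largest falls were *H1f0*, *Col3a1*, *Ccnd1*, *Cavin3*, *Rcn1*, *Cul7*, *Lix1l* and *Col6a1*. *Cavin3*, a caveolar coat protein, fell from 143, 138 and 138 to 2.88, 4.1 and 2.78 FPKM, and *Rcn1*, a calcium-binding protein of the secretory pathway, from 67.6, 75.4 and 62.9 to 0.673, 1.28 and 1.44. *Cul7*, the scaffold of a ubiquitin ligase, fell from 57.1, 65.5 and 58.7 to 0.808, 1.11 and 0.756 FPKM (a difference of -5.02 (SE 0.09, adjusted p = 1.45e-14)), and *Lix1l* from 56.5, 56.8 and 50.8 to 0.999, 0.845 and 0.592 FPKM (a difference of -4.95 (SE 0.09, adjusted p = 1.45e-14)). Each kept its direction and call under every alternative run.

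Some genes went between silence and expression. Under 0.1 FPKM in every library of group D and at least 1 FPKM in every library of group C were 214 genes, of which RefSeq lists 126 as protein-coding and 74 as lncRNA. 92 of them had no read in group D. Their median level in group C was 2.77 FPKM, and *Tmem236*, chosen after its values were seen, measured 44.7, 32.3 and 51.3 FPKM in group C against 0.0332, 0.0602 and 0.0935 FPKM in group D. The reverse was found for 236 genes, 223 protein-coding and 10 lncRNA, of which 13 had no read in group C. *Gatd1*, also chosen after its values were seen, measured 0.0688, 0.0957 and 0.0414 FPKM in group C against 19.1, 15.2 and 17 FPKM in group D. Of the 214 genes, 133 also reached 1 FPKM in all libraries of group B, which had Cu/ES without TCA.

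The calls were unevenly divided by gene type, length and exon number. Of 431 lncRNA genes tested, 42.0% were higher and 18.8% lower, with a median difference of 0.65, against 10.3% and 54.7% of 10000 protein-coding genes, with a median of -1.17. After median-ratio scaling, 57.8% of lncRNA genes and 24.9% of protein-coding genes were higher. The minimum of 1 FPKM partly set these shares, since 150 of the lncRNA genes (34.8%) averaged 1 FPKM in group C but not in D and 92 (21.3%) in group D but not in C, against 298 (2.98%) and 2166 (21.7%) of the protein-coding genes. By quartile of length, the shortest genes, up to 2042 bases, had 18% higher, and the longest had 8.06%. Genes of a single exon had 20.6% higher and 42.2% lower, and those of 20 or more exons 6.38% and 55.7%. These are descriptions, length and exon number go together, and length also enters FPKM and so the minimum.

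Cu/ES without TCA (group B vs. A, which share no library with groups C and D) changed the same genes mostly in the same direction. Of the 10577 genes, 1073 (10.1%) were higher and 5534 (52.3%) lower in group B than in A, with a median difference of -1.08. The genes higher in both comparisons numbered 932, which is 75.3% of those higher with TCA and 86.9% of those higher without, and the genes lower in both numbered 5062, or 90.3% and 91.5%. None was higher in one and lower in the other. Across genes the differences correlated with r = 0.953 (n = 10577 genes, a description, since the genes share libraries). The difference between the effects, tested in the same fit, passed an adjusted p of 0.05 for 3989 genes (37.7%), with 1882 more positive and 2107 more negative with TCA, and exceeded 1 in size for 374 of them (3.54%). Of these, 191 (1.81%) were more positive and 183 (1.73%) more negative.

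**Figure D5:**
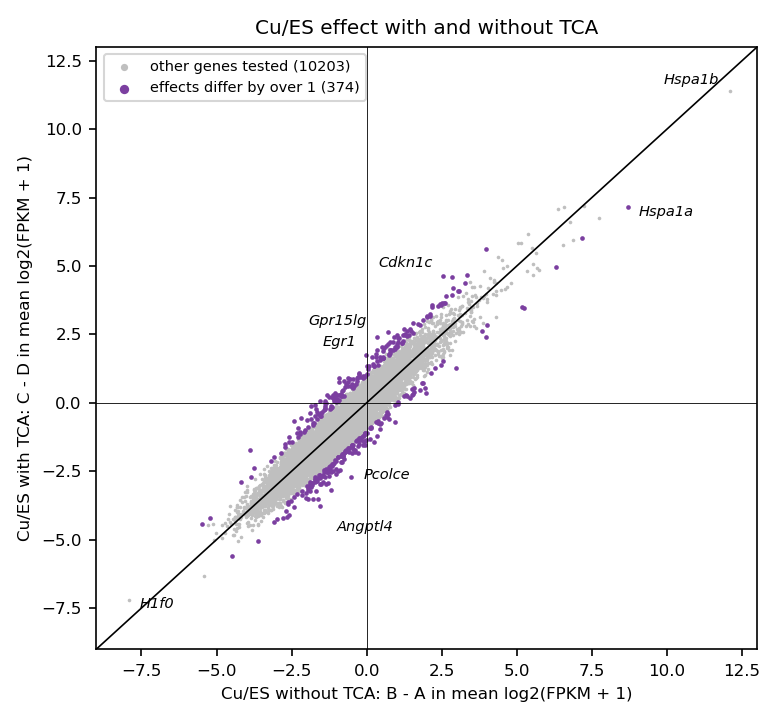
Each point is 1 gene, with the Cu/ES effect without TCA on the horizontal axis and with TCA on the vertical axis, both as differences of mean log2(FPKM + 1), and the diagonal marks equal effects. The 374 genes in purple differ by more than 1 at an adjusted p under 0.05 and lie on both sides of the diagonal.

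The genes whose Cu/ES effect was most negative with TCA, compared with its effect without, were *Angptl4*, *Pcolce*, *Cyba* and *Tpm2*. *Angptl4*, an inhibitor of lipoprotein lipase and a PPAR target, fell from 54.4, 63.6 and 60 to 3.61, 3.76 and 2.9 FPKM with TCA and went from 12.7, 17.2 and 13.8 to 4.1, 4.37 and 4.35 FPKM without, a difference of effects of -2.22 (SE 0.15, adjusted p = 3.60e-06). Group D lay above group A in this gene, and groups B and C were both under 5 FPKM. *Pcolce*, an enhancer of procollagen cleavage, had a difference of -2.20 (SE 0.29, adjusted p = 0.000108), *Cyba*, the p22phox subunit of NADPH oxidases, of -2.00 (SE 0.26, adjusted p = 9.27e-05), and *Tpm2*, a tropomyosin, of -1.90 (SE 0.12, adjusted p = 3.60e-06). Most positive were *Cdkn1c* at 2.10 (SE 0.20, adjusted p = 1.29e-05), the peptide gene *Gpr15lg* at 2.07 (SE 0.32, adjusted p = 0.000329), *Egr1* at 1.77 (SE 0.21, adjusted p = 5.47e-05) and the predicted gene *Gm15728* at 1.77 (SE 0.18, adjusted p = 2.14e-05). *Egr1*, an immediate early factor, measured 232, 233 and 248 FPKM in group C against 64, 62.4 and 84.1 FPKM in group D. Without TCA it measured 40.7, 32.3 and 49.8 FPKM untreated and 35.8, 47 and 38.1 with Cu/ES, so that it was called higher with TCA and its difference between groups B and A was -0.01.

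By list, the Cu/ES effects differed most for complex I, where 30 of 36 members had a more negative and 0 a more positive Cu/ES effect with TCA (median difference of effects -0.65), read against 19.9% of all genes more negative and 17.8% more positive. Of NRF2 targets, 20 of 31 members had a more negative and 0 a more positive Cu/ES effect with TCA, and *Hmox1* rose from 32.5, 21.1 and 32.2 to 2538, 2954 and 2587 FPKM without TCA (difference of effects -0.78 (SE 0.22, adjusted p = 0.0127)). Of mitochondrial ribosomal proteins, 39 of 77 members had a more negative and 2 a more positive Cu/ES effect with TCA. For nuclear subunits of complexes II to V these counts were 25 and 0 of 38, and for DNA replication 23 and 0 of 42. The citric acid cycle had 13 and 1 of 19, and aminoacyl-tRNA synthetases 14 and 1 of 20. The lists given here are examples, and others also leaned to 1 side. Of the nucleolar list, 26 of 37 members had a more negative and 1 a more positive Cu/ES effect with TCA. Of the integrated stress response, 17 of 31 members had a more negative and 0 a more positive Cu/ES effect with TCA. Of hypoxia genes the direction was the other, as 0 of 19 members had a more negative and 12 a more positive Cu/ES effect with TCA, with *Kdm3a* at 1.53 (SE 0.17, adjusted p = 4.15e-05). Such a difference depends on the levels in groups A and D as well as in B and C. In *Pdk1* (0.85), group D lay below group A (35.8, 28.1 and 35.7 against 55.8, 49.3 and 56.9 FPKM). Groups B and C were both under 1 FPKM in that gene. In *Kdm3a*, group C also lay above group B (95.1, 70.3 and 92.4 against 39.5, 40.7 and 41.7 FPKM). The other members were not tested for this. Of autophagy and lysosome genes, 8 of 54 members had a more negative and 22 a more positive Cu/ES effect with TCA, and of glycolysis genes, 3 of 19 members had a more negative and 11 a more positive Cu/ES effect with TCA. Several heat shock genes rose less with TCA, among them *Hspb1* (difference of effects -1.77 (SE 0.35, adjusted p = 0.00174)), *Hspa1a* (-1.56 (SE 0.34, adjusted p = 0.00294)), *Hsph1* (-0.88 (SE 0.08, adjusted p = 8.27e-06)) and *Dnajb1* (-0.92 (SE 0.13, adjusted p = 0.000167)), while *Hspa8* did not pass (0.21 (SE 0.15, adjusted p = 0.281)). Of the 4 genes of lipoylation named above, *Dlat* and *Dlst* were lowered more with TCA (-0.55 (SE 0.11, adjusted p = 0.00193) and -0.39 (SE 0.09, adjusted p = 0.0049)), and *Fdx1* and *Lias* gave 0.18 (SE 0.14, adjusted p = 0.329) and -0.17 (SE 0.13, adjusted p = 0.326). *Mt2* was lowered more with TCA as well (-0.98 (SE 0.16, adjusted p = 0.000379)), and *Mt1*, which without TCA went from 163, 165 and 179 to 373, 303 and 387 FPKM, gave -0.56 (SE 0.16, adjusted p = 0.0126).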

How the data were processed

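The authors deposited FPKM values of 24824 genes by symbol, 1 column per library. The submitters' processing notes name fastp, HISAT2, HTSeq and the build GRCm39, while versions and the annotation are not given in the sources used here. No gene coordinate of that build is printed, and promoters came from RefSeq of GRCm38.p6. RNA was extracted with TRIzol.

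FPKM values were taken as log2(FPKM + 1), genes with a mean of at least 1 over the 6 libraries of groups C and D were kept, and all 12 libraries were fitted in 1 model of 4 groups by limma (version 3.58.1, R 4.3.3), moderated by empirical Bayes with a trend. The pseudocount makes differences of low genes smaller than their fold changes. P-values are two-sided and adjusted by Benjamini-Hochberg over all 10577 genes. Whole reads were recovered for all 22212 genes above 0 in at least 2 libraries (100%, within 0.02 reads, or 0.1 for the 14 most abundant), and intervals cover counting error only. On simulated libraries the fit recovered 30 of 50 genes changed 1.5-fold and 50 of 50 changed 2-fold, with 9 false calls. Those libraries had no common shift and far fewer changed genes than these data, so the outcome does not carry over to them.

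Members and the 45 gene lists were chosen with earlier results of these data known. Named genes are the 8 largest rises and falls with at least 5 FPKM and no overlap, the largest rise and fall of each list under the same conditions, 11 genes of copper, lipoylation and HSP70, and the 4 largest differences of effects each way with at least 5 FPKM over 12 libraries. Some genes that this rule names are not reported here. *Hsph1*, *Hspa8*, *Hspa5*, *Bag3*, *Hspb1*, *Sqstm1*, *Srxn1*, *Txnrd1*, *Gclm*, *Slc7a11*, *Ddit3*, *Asns*, *Cdkn1a*, *Mdm2*, *Fos*, *Jun*, *Ccnb1*, *Pdha1*, *Tmem236* and *Gatd1*, and marker genes, were named after their values were seen. Alternatives were a pseudocount of 0.1, no filter or a minimum of 5 FPKM, TPM, median-ratio and quantile scaling, a replicate block, no trend, groups C and D alone, limma-voom on recovered reads, and each library left out. Exon numbers came from GENCODE M21 by symbol for 95.9% of genes. Tables were made with Python 3.11.15 (scipy 1.17.1, numpy 2.4.6, pandas 2.3.3) and plots with matplotlib 3.10.9.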

Additional observations from a re-analysis of the deposited data

Results flagged for a closer look

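The Cu/ES effect differed with and without TCA in 3989 of 10577 genes by limma's test of the difference (adjusted p under 0.05 with Benjamini-Hochberg adjustment), with sizes above 1 in 374. Among the genes named in the text, the effect was more negative with TCA for 48 and more positive for 21. Values below are the effect with TCA less that without, on the log2(FPKM + 1) scale. They depend on the levels in groups A and D as well as on those in B and C.

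Differences of -1 or lower were found for *Angptl4* (-2.22), *Pcolce* (-2.20), *Cyba* (-2.00), *Tpm2* (-1.90), *Hspb1* (-1.77), *Hspa1a* (-1.56), *Cavin3* (-1.45) and *Ccnd1* (-1.10). Differences between -1 and -0.70 were found for *Cryab* (-0.98), *Mt2* (-0.98), *Trib3* (-0.94), *Nsfl1c* (-0.93), *Dnajb1* (-0.92), *Col3a1* (-0.90), *Sqstm1* (-0.90), *Hsph1* (-0.88), *Hspa14* (-0.85), *Loxl2* (-0.85), *Psmg2* (-0.81), *Krt8* (-0.80), *Hmox1* (-0.78), *Atf3* (-0.76), *Rcn1* (-0.76), *Mgst3* (-0.74), *Col6a1* (-0.71), *Atf5* (-0.70) and *Vim* (-0.70). Smaller ones were found for *Srxn1* (-0.69), *Dnaja3* (-0.68), *Hspa1b* (-0.68), *Slc7a11* (-0.64), *Rars* (-0.57), *Srsf9* (-0.57), *Mt1* (-0.56), *Dlat* (-0.55), *Acadl* (-0.55), *Hsp90aa1* (-0.51), *Tk1* (-0.51), *Krt18* (-0.51), *Bag5* (-0.50), *Fh1* (-0.49), *Dars* (-0.45), *Lpcat3* (-0.44), *Polr1b* (-0.42), *Atg13* (-0.42), *Dlst* (-0.39), *Gclm* (-0.33) and *Cct3* (-0.24).

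Differences above 1 were found for *Cdkn1c* (2.10), *Gpr15lg* (2.07), *Egr1* (1.77), *Gm15728* (1.77), *Kdm3a* (1.53), *Pecam1* (1.25), *Cyp2u1* (1.17) and *H2bc4* (1.10). Smaller ones were found for *Tmem236* (0.98), *Pdk1* (0.85), *Gm41326* (0.78), *H1f0* (0.71), *Gadd45g* (0.70), *Aldoc* (0.69), *Apoe* (0.53), *Gatd1* (0.50), *Slc39a9* (0.48), *S1pr2* (0.42), *Pdha1* (0.40), *Slc31a1* (0.38) and *Pdhb* (0.37).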

How the results depend on the processing

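The scaling decided the split between rises and falls. As deposited, 1238 genes were higher and 5607 lower with a median of -1.12, and the counts were 2804 and 2884 (median -0.09) after median-ratio scaling, 2230 and 2950 (median -0.19) after quantile normalization, and 1033 and 6479 (median -1.51) in TPM. The lower count fell to 3395 (median -0.99) with a minimum mean of 5 FPKM, under which fewer genes are tested. The minimum also left 6334 genes past the adjusted p. Without a filter 13953 genes passed the adjusted p, from more genes tested, and the median was -0.01, while a pseudocount of 0.1 gave a median of -1.34 and limma-voom on recovered reads -1.37. Leaving out 1 library gave 1217 to 1258 higher, 5559 to 5639 lower, 9637 to 9754 past the adjusted p, a median of -1.12 to -1.09, and 3369 to 4808 differences of effects. Same-numbered libraries of groups C and D deviated with correlations of -0.171, -0.070 and 0.106, so the numbers do not pair them, and of the libraries of group C only C3 correlated best, among those of group D, with its own number. Same-numbered libraries of groups A and B correlated by 0.174, 0.176 and 0.135, and those of groups A and D by 0.085, 0.576 and 0.297. For groups B and C the values were 0.271, 0.241 and 0.009, for A and C 0.180, 0.125 and -0.032, and for B and D -0.061, 0.157 and 0.018. Some same-numbered libraries of other groups thus deviated together, and whether the number marks a batch was not tested. The replicate block gave 1238 higher, 5607 lower, 9833 past the adjusted p and 4194 differences of effects, and 1073 higher and 5534 lower in group B than in A.

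List medians less that of all genes changed sign under some alternatives, whose cause was not tested: after quantile normalization -0.31 (metallothioneins and zinc transport), -0.43 (endoplasmic reticulum chaperones and unfolded protein response), -0.27 (mitochondrial chaperones and proteases), -0.79 (nuclear subunits of complexes II to V), -0.37 (glycolysis), -0.02 (cholesterol and fatty acid synthesis), -0.49 (aminoacyl-tRNA synthetases) and 0.33 (BCL2 family); with the minimum of 5 FPKM 0.65 (DNAJ co-chaperones), 0.33 (copper uptake, chaperones and export), -0.05 (cholesterol and fatty acid synthesis) and 0.51 (BCL2 family); and without a filter 0.06 (DNAJ co-chaperones), 0.21 (copper uptake, chaperones and export), 0.68 (BCL2 family) and 0.99 (drug-metabolising enzymes). Among single genes, *Asns* (0.26), *Cdkn1a* (1.13), *Dlst* (0.24) and *Srxn1* (0.54) turned to a rise after median-ratio scaling, and *Ddit3* (-0.02) and *Slc7a11* (-0.05) turned in TPM. Of the other values of single genes, 1860 kept direction and side of the threshold, 14 lost the adjusted p and 6 gained it.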
